A study of Mus with 35 samples.

Results

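The brains of wild-type (WT) mice that had received an antisense oligonucleotide (ASO) against Hnrnph2 were compared with those of WT mice that had received a control ASO, in the R206W cohort at 3 weeks of age. The libraries were chosen from the deposited expression table by their titles, genotype WT with either ASO at 3 weeks, and by a library number series that marks this cohort. This gave 6 of the 35 libraries of the study, 3 for each ASO, and the genes examined were those whose level averaged 1 TPM (a transcript level scaled to length and library total) or more. Of 55573 rows in the table, 16489 reached that level across the 12 libraries of the cohort. Spidr and Ugt1a6a lay just inside this limit, both with a mean of 1.0008 TPM, while Frrs1 at 0.99917 TPM and Eaf2 at 0.99833 TPM lay just outside it.

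All 6 libraries came from male C57BL/6J mice without a mutation in Hnrnph2, littermates of hemizygous males that carry the R206W substitution. The mice given the Hnrnph2 ASO and the mice given the control ASO were injected once into the brain ventricles with 30 µg, between postnatal days 2 and 4. Both arms therefore carry an injection and an ASO, and no uninjected brain enters the comparison. The design text names whole brain and the extraction protocol names dissected cortex. Cortical markers were expressed (Slc17a7, the vesicular glutamate transporter of cortical neurons, at 723 ± 32.5 TPM with the Hnrnph2 ASO and 756 ± 47.3 TPM with the control ASO, SD, n = 3 each). So were cerebellar markers (Cbln3, a granule cell gene, at 129 ± 4.81 TPM with the Hnrnph2 ASO and 125 ± 22.1 TPM with the control ASO, SD, n = 3 each), although the extraction protocol names cortex. The names in the titles contain a stem, which is AKR89 or AKR91 for the Hnrnph2 ASO libraries and AKR90 for the control ASO libraries. The labels do not say what these stems stand for, and the stem and the ASO cannot be told apart.

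An ASO is a short, chemically modified strand that pairs with a chosen RNA, and many ASOs lead to cleavage of that RNA by RNase H. Hnrnph2 is a gene on the X chromosome that encodes hnRNP H2, a member of the hnRNP H/F group of proteins, which bind G-rich stretches of RNA and regulate splicing and polyadenylation. Its autosomal paralog Hnrnph1 encodes a closely similar protein. In humans, variants in HNRNPH2 cause a neurodevelopmental disorder, so the question here is what lowering the normal transcript does to an otherwise normal young brain.

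The 6 libraries resembled each other closely. The mean Pearson correlation of a library with the others of its own arm, across genes on the log2(TPM + 1) scale, was 0.988 for each of the 3 Hnrnph2 ASO libraries and 0.984 to 0.985 for the control ASO libraries. Each control ASO library correlated at least as highly with the Hnrnph2 ASO libraries (0.984 to 0.988) as with the other controls. Between 16246 and 16484 genes reached 1 TPM with the Hnrnph2 ASO and between 16276 and 16414 with the control ASO. Mitochondrially encoded genes held 13.2% to 14.5% of all TPM with the Hnrnph2 ASO and 12.5% to 13.9% with the control ASO.

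Hnrnph2, the gene the ASO is directed at (chromosome X, 134601179 to 134607060, mm10), fell to 24.1% of its control level. It measured 26.68, 24.6 and 23.34 TPM in the Hnrnph2 ASO libraries, against 116.82, 97.81 and 94.46 TPM in the control ASO libraries. The ranges were far apart, and the libraries within the Hnrnph2 ASO arm differed by little. The means were 24.9 ± 1.69 TPM with the Hnrnph2 ASO and 103 ± 12.1 TPM with the control ASO (SD, n = 3 each), which is 75.9% lower. The log2 fold change, here and below taken on log2(TPM + 1), was -2.003 (SE 0.098, 95% interval -2.22 to -1.79, adjusted p = 3.54e-06 by limma over all genes tested). The exact two-sided permutation test gave p = 0.1, the smallest value that 3 libraries against 3 allow.

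Hnrnph2 was also lower in the 3 other comparisons of the same ASO. In R206W mice of the same cohort Hnrnph2 averaged 21.3 ± 2.32 TPM with the Hnrnph2 ASO and 102 ± 7.89 TPM with the control ASO (SD, n = 3 each). In P209L-cohort WT mice aged 3 weeks it averaged 18.0 ± 1.49 TPM with the Hnrnph2 ASO and 109 ± 6.66 TPM with the control ASO (SD, n = 3 each). In P209L-cohort WT mice aged 8 weeks the means were 17.0 ± 4.50 TPM with the Hnrnph2 ASO and 105 ± 14.8 TPM with the control ASO (SD, n = 3 each). The log2 fold changes were -2.21, -2.54 and -2.58, so the fall in WT of the R206W cohort was the smallest of the 4 in these libraries. Its difference from the other effects did not pass the test across genes in any pair (limma, adjusted p = 1 against R206W and against the P209L cohort at 3 weeks, and 0.977 against the P209L cohort at 8 weeks).

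**Figure D1:**
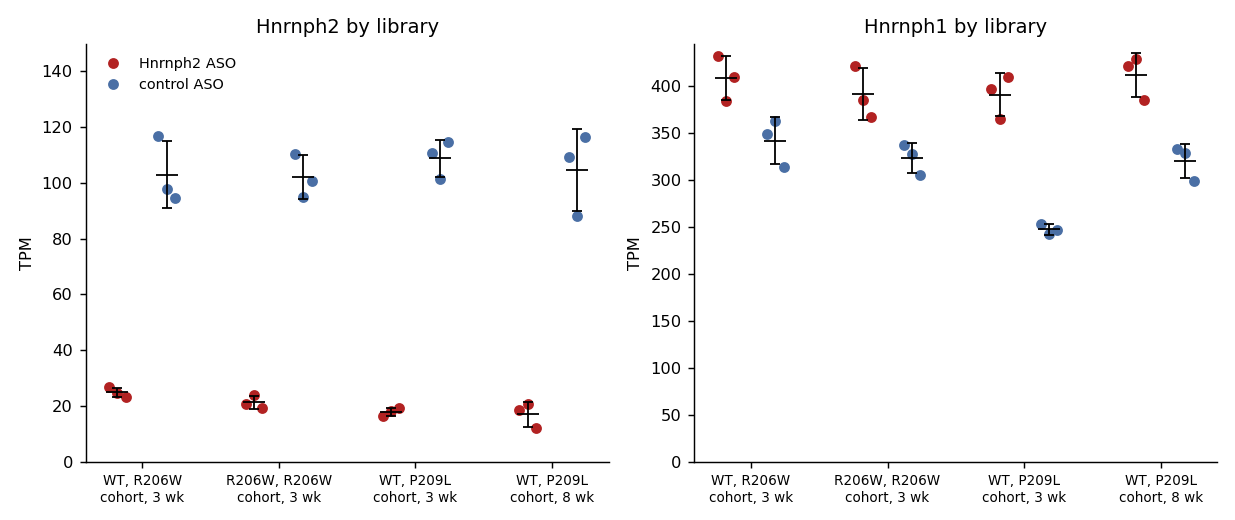
TPM of Hnrnph2 (left) and Hnrnph1 (right) in each library under the Hnrnph2 ASO (red) and the control ASO (blue), in 4 comparisons named by genotype, cohort and age in weeks; points are libraries, bars the mean and SD. With the Hnrnph2 ASO no library exceeded 26.68 TPM of Hnrnph2, while in every comparison the Hnrnph1 libraries of the Hnrnph2 ASO arm lay above those of the control ASO arm.

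Hnrnph1 (chromosome 11, 50375257 to 50386528) was the abundant member of the family. It measured 431.11, 383.88 and 409.23 TPM with the Hnrnph2 ASO, against 348.13, 362.84 and 313.92 TPM with the control ASO. The lowest Hnrnph2 ASO library stood above the highest control ASO library. The log2 difference of 0.26 (SE 0.072, 95% interval 0.10 to 0.41) did not pass the threshold across all genes (adjusted p = 0.538 by limma, exact permutation p = 0.1). The same direction, also without overlap between arms, was measured in R206W mice (0.27), in P209L-cohort WT mice at 3 weeks (0.66) and at 8 weeks (0.36). Only the second of these 3 passed in the fit of its own cohort. The WT control ASO libraries had 342 ± 25.1 TPM of Hnrnph1 in the R206W cohort and 247 ± 5.55 TPM in the P209L cohort at 3 weeks (SD, n = 3 each). The difference between these 2 effects, -0.40 (SE 0.091), did not pass across genes (adjusted p = 0.867 by limma).

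On the linear scale Hnrnph1 was 66.4 TPM higher and Hnrnph2 78.2 TPM lower. Their sum was 457.79, 408.48 and 432.57 TPM with the Hnrnph2 ASO, against 464.95, 460.65 and 408.38 TPM with the control ASO. The arms overlapped in this sum (means 433 ± 24.7 TPM with the Hnrnph2 ASO and 445 ± 31.5 TPM with the control ASO, SD, n = 3 each, exact permutation p = 0.6). Hnrnph2 made up 5.40% to 6.02% of the sum with the Hnrnph2 ASO and 21.2% to 25.1% with the control ASO. The genes are closely similar in coding sequence, and the TPM come from a program that shares ambiguous reads between genes, so the division between them carries an uncertainty that the table does not give.

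The other members of the family lay close to their control levels. Hnrnph3 averaged 49.6 ± 5.05 TPM with the Hnrnph2 ASO and 52.2 ± 5.11 TPM with the control ASO, at a log2 difference of -0.07 (interval -0.31 to 0.16, SD, n = 3 each). For Hnrnpf the log2 difference was -0.07 (interval -0.24 to 0.09). Grsf1, which binds G-rich RNA in mitochondria, had a log2 difference of 0.02 (interval -0.13 to 0.18). In all 3 genes the arms overlapped.

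Genes beside the target lay close to their control levels. Within 200 kb of Hnrnph2 on the X chromosome, 9 genes reached the limit of a mean of 1 TPM, and genes below it were not examined. The 9 were Drp2, Gla, Armcx1, Armcx2, Armcx3, Armcx4, Armcx6, Timm8a1 and Rpl36a. Their log2 differences ran from -0.11 to 0.08, and the arms overlapped in each. Gla, which encodes the lysosomal alpha-galactosidase, measured 7.61, 7.3 and 7.67 TPM with the Hnrnph2 ASO, against 7.3, 6.8 and 7.07 TPM with the control ASO. Rpl36a, a ribosomal protein gene, measured 247.29, 257.08 and 265.78 TPM with the Hnrnph2 ASO, against 232.77, 237.53 and 270.56 TPM with the control ASO.

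Across the genome the response of WT brain was small. At an adjusted p under 0.05, 1 gene rose and 1 fell among 16489 tested, 0.0121% of genes in all and 0.00606% in each direction. The gene that rose entered the test only through its values in the Hnrnph2 ASO arm. The median absolute log2 fold change was 0.077 and the median SE 0.102. For 13772 genes (83.5%) the 95% interval of the log2 fold change lay within 0.5 of 0 on either side. At an unadjusted p under 0.05, 392 genes (2.38%) were higher and 738 (4.48%) lower with the Hnrnph2 ASO, while median-of-ratios scaling of the libraries gave 580 higher and 591 lower. The arms did not overlap in 825 genes (5.0%) with higher values and in 1320 genes (8.01%) with lower values. The labels do not say that the libraries come from separate animals, so every p measures the spread between these libraries.

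**Figure D2:**
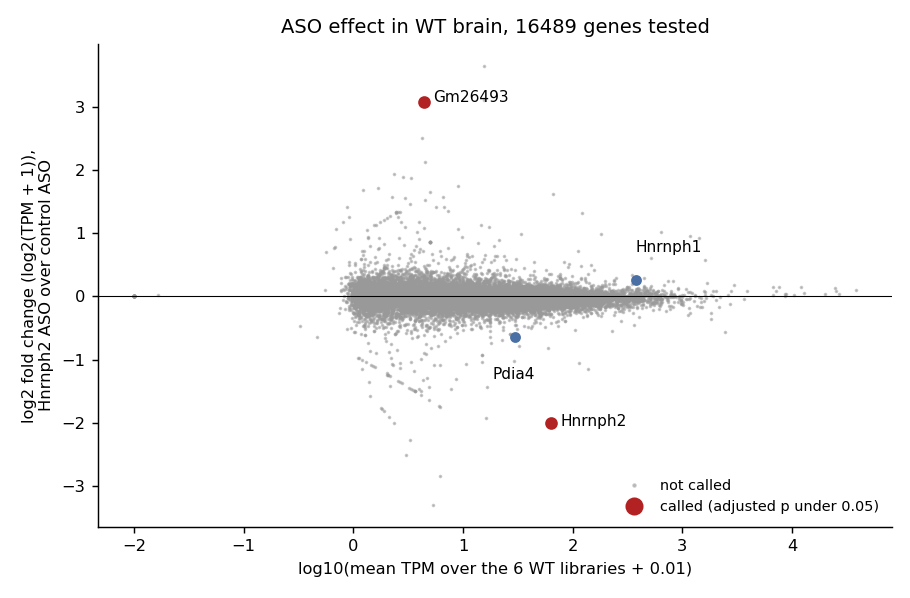
Log2 fold change of Hnrnph2 ASO over control ASO in WT of the R206W cohort (vertical axis, log2(TPM + 1)) against the mean level over the 6 libraries (horizontal axis, log10) for 16489 genes. The 2 called genes are in red, Hnrnph2 and Gm26493, whose controls are listed at 0, with Hnrnph1 (0.26) and Pdia4 (-0.65), which were not called, in blue.

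The gene that fell was Hnrnph2 itself. The gene that rose, Gm26493, is an unnamed model annotated by RefSeq as a small nucleolar RNA (chromosome 8, 95746060 to 95746195). It measured 16.37, 6.65 and 3.44 TPM with the Hnrnph2 ASO and is listed at 0 in all 3 control ASO libraries, so no fold is given (adjusted p = 0.0172 by limma). Gm26493 is also listed at 0 in all 6 R206W libraries of the cohort. It therefore reached the limit of a mean of 1 TPM through the Hnrnph2 ASO libraries alone, and its call is not independent of that filter. In P209L-cohort WT mice at 3 weeks Gm26493 measured 2.91 to 6.8 TPM with the Hnrnph2 ASO and 3.11 to 7.65 TPM with the control ASO. Its call did not hold without control ASO replicate 1 (adjusted p = 0.0517 by limma), 2 (0.0911) or 3 (0.0815), or without Hnrnph2 ASO replicate 2 (0.0739). Without Hnrnph2 ASO replicate 1 its mean lay below 1 TPM, so Gm26493 was not tested in that setting. Differences above 1 on the log2 scale occurred in 107 genes, of which 30 averaged 5 TPM or more, among them Hnrnph2 and Hba-a1.

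The genes named next are those of mean at least 5 TPM, without overlap between the arms, that had the smallest p in each direction. None passed the threshold (adjusted p of 0.488 to 0.524 by limma), so their values are a description. Among the 9 on the lower side was Brinp3, a neural protein induced by retinoic acid, with 13.45, 12.75 and 14.74 TPM under the Hnrnph2 ASO, against 20.67, 16.86 and 20.31 TPM under the control ASO. Impdh1, which makes the precursor of guanine nucleotides, measured 42.03, 42.57 and 45.72 TPM with the Hnrnph2 ASO, against 55.21, 53.83 and 54.57 TPM with the control ASO. Within each arm the libraries of Impdh1 lay close together. Tufm, the mitochondrial translation elongation factor, averaged 51.7 ± 1.97 TPM with the Hnrnph2 ASO and 62.9 ± 1.57 TPM with the control ASO (SD, n = 3 each). Ntm, a neuronal adhesion molecule of the IgLON family, averaged 148 ± 5.99 TPM with the Hnrnph2 ASO and 176 ± 7.88 TPM with the control ASO (SD, n = 3 each). The log2 differences of these genes were -0.47 (Brinp3), -0.32 (Impdh1), -0.28 (Tufm) and -0.24 (Ntm), and the remaining 5 were Rufy1, Marcksl1, Lhpp (a phosphatase), Cd99l2 (a surface adhesion protein) and Pdia4, at -0.41, -0.39, -0.39, -0.30 and -0.65.

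Rufy1, which encodes an endosomal adaptor of Rab proteins, is the gene next to Hnrnph1, starting 2758 bases beyond its end on chromosome 11 (50389286 to 50431274). It measured 15.36, 13.98 and 15.16 TPM with the Hnrnph2 ASO, against 20.95, 19.92 and 19.44 TPM with the control ASO, 26.2% lower. Its log2 difference was -0.41 (SE 0.081) in WT of the R206W cohort, and the other comparisons of the same ASO, which share no library with it, gave -0.54 in R206W, -0.48 in P209L-cohort WT mice at 3 weeks and -0.44 at 8 weeks. In each of the 4 the arms did not overlap. Rufy1 passed in R206W (adjusted p = 0.033 by limma) and in none of the 3 WT comparisons.

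On the higher side stood Smim4, Hsf4, Olfml1, Cdkl3, Adssl1, Btg2, Phospho1, Dtd2, Litaf and Lias, with log2 differences of 0.26 to 0.57. Hsf4, a transcription factor of the heat shock family, measured 6.25, 7.89 and 7.43 TPM with the Hnrnph2 ASO, against 4.06, 5.12 and 4.83 TPM with the control ASO. Cdkl3, a cyclin-dependent kinase-like gene, measured 19.75, 18.11 and 16.12 TPM with the Hnrnph2 ASO, against 11.98, 12.24 and 11.73 TPM with the control ASO. Adssl1, an enzyme of adenine nucleotide synthesis, averaged 28.9 ± 1.62 TPM with the Hnrnph2 ASO and 21.5 ± 0.824 TPM with the control ASO (SD, n = 3 each). Litaf, an endosomal protein first found as a gene induced by lipopolysaccharide, averaged 51.0 ± 7.61 TPM with the Hnrnph2 ASO and 38.2 ± 0.915 TPM with the control ASO (SD, n = 3 each). The Hnrnph2 ASO libraries of Litaf spread more widely than its controls. Smim4 (a mitochondrial membrane protein) and Lias (lipoic acid synthase) had log2 differences of 0.35 and 0.26.

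These genes mostly kept their side in the other comparisons of the same ASO. Of the 10 on the higher side, 9 were also higher in R206W, 8 in P209L-cohort WT mice at 3 weeks and 9 at 8 weeks. Of the 9 on the lower side, 9, 9 and 8 were also lower. Over all genes of mean at least 5 TPM the share on the same side was 65.4% in R206W (12271 genes), 54.2% in P209L-cohort WT mice at 3 weeks and 52.2% at 8 weeks. For genes whose arms did not overlap in WT of the R206W cohort, the share was 82.6%, 59.5% and 59.5%. Across genes the log2 fold changes correlated at r = 0.371 with those of R206W, 0.203 with those of WT at 3 weeks in the P209L cohort and 0.191 with those at 8 weeks. Genes are not independent replicates, and the R206W libraries share the cohort and the pattern of name stems, AKR89 and AKR91 for the Hnrnph2 ASO and AKR90 and AKR94 for the control ASO.

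**Figure D3:**
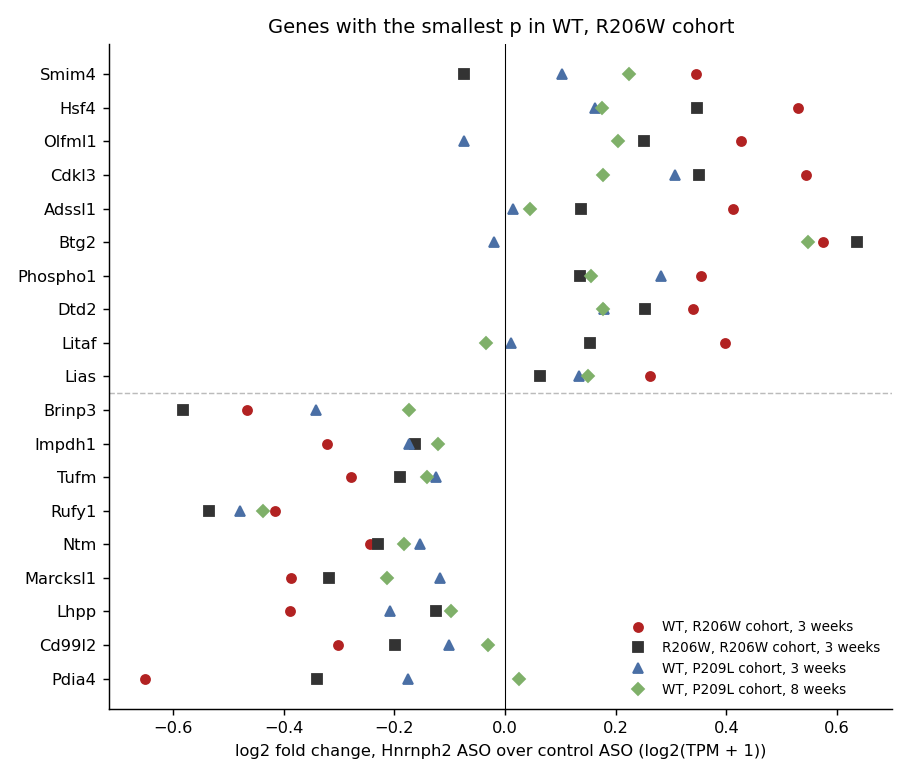
Log2 fold change of Hnrnph2 ASO over control ASO (horizontal axis, log2(TPM + 1)) for the 19 genes besides Hnrnph2 with the smallest p in WT of the R206W cohort (red circles), with their values in 3 comparisons that share no library with it. Rufy1 and Ntm lay on the lower side in all 4, while Pdia4 at -0.65 in WT of the R206W cohort lay at 0.03 in P209L-cohort WT mice at 8 weeks.

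Gene lists for brain cell types and pathways were then read by their counts, medians and summed TPM, against a median of -0.02 over all genes. No member of any list passed the threshold other than Hnrnph2. The list with the largest share of low p on the lower side was the integrated stress and unfolded protein response, whose genes fold proteins in the endoplasmic reticulum or answer amino acid shortage. Of 20 members tested, 10 had an unadjusted p under 0.05 and all 10 were lower, where 4.48% of all genes were. In 11 the arms did not overlap on the lower side (8.01% of all genes) and in 1 on the higher (5.0%), and the median was -0.20. Summed over the list, TPM were 1376 to 1492 with the Hnrnph2 ASO and 1655 to 1961 with the control ASO.

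All but Xbp1 and Chac1 of these 10 encode chaperones, disulfide isomerases or other proteins of the endoplasmic reticulum. Hspa5, the main chaperone of the endoplasmic reticulum (BiP), measured 170.25, 196.94 and 190.75 TPM with the Hnrnph2 ASO, against 275.08, 302.66 and 242.23 TPM with the control ASO. Its arms were well apart, with a log2 difference of -0.55 (SE 0.131, adjusted p = 0.488 by limma). Pdia4, a protein disulfide isomerase, measured 21.97, 23.31 and 23.03 TPM with the Hnrnph2 ASO, against 36.99, 42.5 and 30.43 TPM with the control ASO. Calr, the calcium-binding chaperone calreticulin, had a log2 difference of -0.45, and Manf, a secreted protein of the endoplasmic reticulum, one of -0.53. Named after their values were seen, Hsp90b1 (-0.30) and Xbp1, the transcription factor of this response (-0.39), lay on the same side, while Atf4 (-0.08), Ddit3 (-0.14) and the asparagine synthetase Asns (0.02) overlapped between the arms. The pattern was not alike in every comparison of the ASO. The list median was -0.13 in R206W, 0.00 in P209L-cohort WT mice at 3 weeks and -0.02 at 8 weeks, and Hspa5 stood at -0.43, 0.03 and 0.07. The difference of the Hspa5 effects between the R206W cohort and the P209L cohort was -0.58 (SE 0.15) at 3 weeks and -0.62 (SE 0.15) at 8 weeks, and neither passed across genes (adjusted p = 1 and 0.977 by limma). Of 17 heat shock protein genes 14 lay below 0, at a median of -0.11. In 5 the arms did not overlap on the lower side (8.01% of all genes) and in 1 on the higher (5.0%). An unadjusted p under 0.05 was found in 2 on the lower side (4.48%) and 1 on the higher (2.38%). Summed TPM were 3899 to 4130 with the Hnrnph2 ASO and 4197 to 4494 with the control ASO. The median of these genes was -0.05 in R206W, 0.05 in P209L-cohort WT mice at 3 weeks and 0.07 at 8 weeks.

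**Figure D4:**
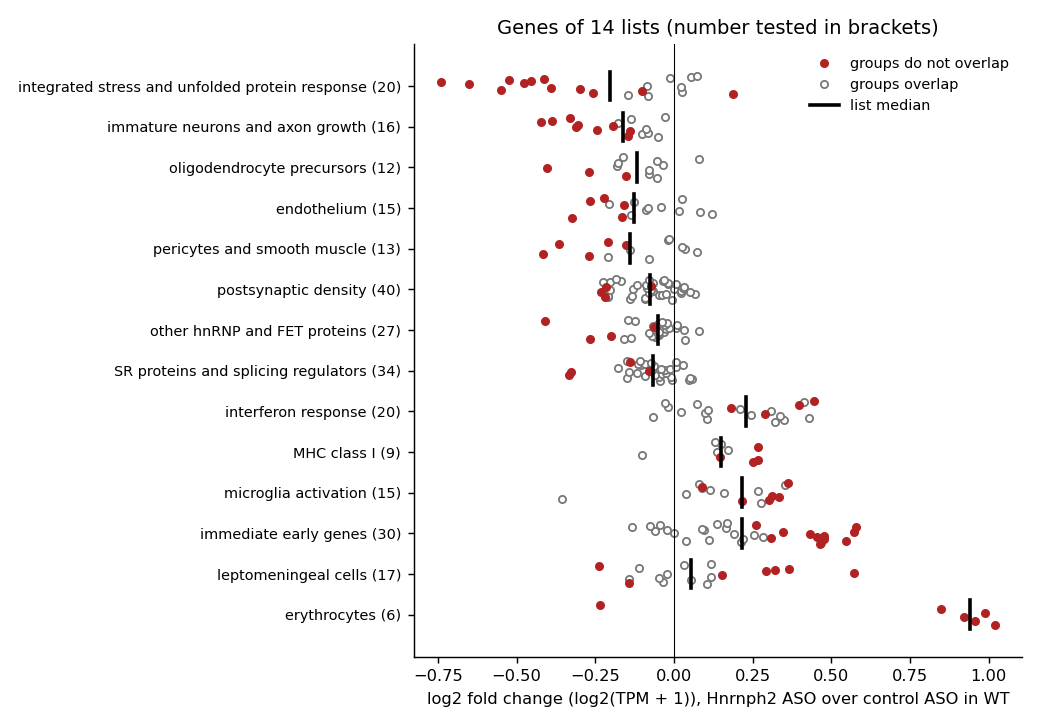
Log2 fold change of Hnrnph2 ASO over control ASO in WT of the R206W cohort (horizontal axis, log2(TPM + 1)) for the genes of 14 lists, 1 point per gene, filled where the arms do not overlap; black bars are list medians. The stress and unfolded protein list lies on the lower side (median -0.20) and 5 of 6 erythrocyte genes lie between 0.85 and 1.02, while no gene shown passed the threshold.

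Genes of immature neurons and axon growth also lay on the lower side. All 16 members had a value below 0, 7 with an unadjusted p under 0.05 (4.48% of all genes on the lower side) and 9 without overlap (8.01%), at a median of -0.16. Marcksl1, an actin-binding protein of growing neurons, measured 235.71, 240.58 and 233.8 TPM with the Hnrnph2 ASO, against 307.55, 296.65 and 325.84 TPM with the control ASO. Gap43, the growth cone protein, had a log2 difference of -0.24, Tubb2b, a tubulin of developing neurons, one of -0.31, and Nrep one of -0.33. In a bulk sample fewer cells of a type and less RNA per cell cannot be told apart. The list median was -0.17 in R206W, but 0.07 and 0.01 in P209L-cohort WT mice at 3 and 8 weeks. Tubb2b stood at 0.35 in P209L-cohort WT mice at 3 weeks, and the difference between the cohorts, -0.67 (SE 0.15), had among the smallest p in that comparison without passing (adjusted p = 0.867 by limma).

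Genes of oligodendrocyte precursors lay mostly below 0, by less. Gpr17, a receptor of cells about to form myelin, measured 61.49, 62.8 and 57.7 TPM with the Hnrnph2 ASO, against 81.88, 77.78 and 81.89 TPM with the control ASO, a log2 difference of -0.40. Olig2, the lineage transcription factor, had -0.27. Of 12 members 2 had an unadjusted p under 0.05, both lower, where 4.48% of all genes were, and 11 lay below 0, with summed TPM of 459 to 492 with the Hnrnph2 ASO and 513 to 540 with the control ASO. Myelin genes had a median of -0.01 over 21 members, with values from -0.32 to 0.42. The arms did not overlap in 5 of them on the higher side (5.0% of all genes) and in 2 on the lower (8.01%).

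Immediate early genes, which neurons transcribe within minutes of activity, lay on the higher side. Of 30 members 8 had an unadjusted p under 0.05, all higher, where 2.38% of all genes were, and in 11 the arms did not overlap on that side (5.0% of all genes), at a median of 0.22. Btg2, an early response gene that restrains proliferation, measured 33.35, 31.14 and 25.24 TPM with the Hnrnph2 ASO, against 20.81, 19.4 and 18.75 TPM with the control ASO. Junb, a subunit of the transcription factor AP-1, measured 101.93, 96.11 and 96.84 TPM with the Hnrnph2 ASO, against 77.44, 56.47 and 68.73 TPM with the control ASO. Ccn1, a secreted matrix protein, and Ier2 had log2 differences of 0.58 and 0.43. The summed level of the list did overlap, at 1417 to 1569 TPM with the Hnrnph2 ASO and 1134 to 1433 TPM with the control ASO. The list median was 0.29 in R206W, -0.01 in P209L-cohort WT mice at 3 weeks and 0.26 at 8 weeks.

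Globin genes, carried by blood, lay far on the higher side. Hba-a1, an alpha globin, measured 971.46, 864.12 and 730.97 TPM with the Hnrnph2 ASO, against 368.02, 514.04 and 387.92 TPM with the control ASO. Hbb-bs, a beta globin, measured 1953.26, 2003.85 and 1583.3 TPM with the Hnrnph2 ASO, against 889.78, 1011.28 and 1009.9 TPM with the control ASO. In both genes every Hnrnph2 ASO library held more than every control ASO library, at log2 differences of 1.02 (SE 0.326) and 0.92 (SE 0.310), neither of which passed (adjusted p = 0.628 and 0.642 by limma). These SEs use a spread shared by the 12 libraries of the cohort. Summed erythrocyte genes had an SD of 1283 and 942 TPM in R206W (Hnrnph2 and control ASO), against 564 and 298 TPM in WT. With the 6 WT libraries alone, Hbb-bt, another beta globin, was called higher. Of 6 erythrocyte genes tested 5 had higher values and an unadjusted p under 0.05 (2.38% of all genes). The other 1 had a lower value, also with an unadjusted p under 0.05 (4.48% of all genes). In all 6 the arms did not overlap, against 5.0% of all genes on the higher side and 8.01% on the lower. The summed TPM of the list were 4147 to 5252 with the Hnrnph2 ASO and 2367 to 2951 with the control ASO, whereas the defining membrane genes Slc4a1 and Epb42 lay below 1 TPM and were not tested. The list median was 0.94 in WT of the R206W cohort, 0.03 in R206W, 0.50 in P209L-cohort WT mice at 3 weeks and -0.20 at 8 weeks. In R206W mice the sums were 1975 to 4433 TPM under the Hnrnph2 ASO and 1803 to 3687 TPM under the control ASO. In R206W the arms overlapped in these sums. The part of blood in the other differences was not tested.

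Markers of the vessel wall lay mostly on the lower side, and those of the meninges on both. Cldn5, the tight junction protein of brain endothelium, measured 57.33, 58.91 and 61.08 TPM with the Hnrnph2 ASO, against 74.15, 74.73 and 73.82 TPM with the control ASO, a log2 difference of -0.32. Rgs5, a pericyte gene, had -0.42. Of 15 endothelial genes 3 had an unadjusted p under 0.05 and of 13 pericyte and smooth muscle genes also 3, all lower, where 4.48% of all genes were, at medians of -0.13 and -0.14. Ptgds, the prostaglandin D synthase of the leptomeninges, which oligodendrocytes also make, measured 1812.11, 2211.79 and 1739.92 TPM with the Hnrnph2 ASO, against 1248.16, 1244.49 and 1362.14 TPM with the control ASO. Its log2 difference was 0.57, close to the 0.63 in R206W, while in P209L-cohort WT mice it was 0.04 and -0.07. Of 17 leptomeningeal genes 10 lay above 0 and 7 below, at a median of 0.05. The arms did not overlap in 5 on the higher side (5.0% of all genes) and in 2 on the lower (8.01%).

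Genes of microglial activation and innate immunity lay mostly on the higher side. The median was 0.21 over 15 genes of microglial activation, 0.23 over 20 interferon-response genes, 0.15 over 9 genes of MHC class I and 0.14 over 6 complement genes. In these lists 6, 4, 4 and 1 genes did not overlap on the higher side (5.0% of all genes), and 0 on the lower. Not one interferon, MHC class I or complement gene had an unadjusted p under 0.05. That p uses a spread shared by the 12 libraries of the cohort. The interferon sum had an SD of 136 TPM in R206W control ASO libraries, against 36.7 and 5.87 TPM in WT with the Hnrnph2 and control ASO. Cd68, a lysosomal protein of phagocytes, measured 14, 16.16 and 11.8 TPM with the Hnrnph2 ASO, against 10.56, 11.22 and 12.16 TPM with the control ASO, and the arms overlapped. Lpl, a lipoprotein lipase of activated microglia, had the opposite sign at -0.35, with an unadjusted p under 0.05 and overlapping arms. B2m, the light chain of MHC class I, measured 136.4, 152.43 and 131.81 TPM with the Hnrnph2 ASO, against 116.8, 113.85 and 121.97 TPM with the control ASO, and did not overlap. Hnrnph2 ASO replicate 2 held the highest sum of the interferon list, 264 TPM, against 213.5 and 193 TPM in the other Hnrnph2 ASO libraries and 188 to 199 TPM in the control ASO libraries. Without that library the list median was 0.07. Astrocyte reactivity genes had a median of 0.11, with 4 of 13 below 0, a median that stood at -0.067 without Hnrnph2 ASO replicate 2. The resting microglia list had a median of -0.02 over 14 genes, and astrocyte identity genes had -0.02.

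Other RNA-binding proteins lay mostly below their control levels, by little. Of 27 hnRNP and FET genes besides the H/F family 22 lay below 0, at a median of -0.05. An unadjusted p under 0.05 was found in 3, all lower, where 4.48% of all genes were. In 4 the arms did not overlap, all on the lower side (8.01% of all genes). Hnrnpa1, a splicing repressor, measured 160.64, 149.37 and 144.83 TPM with the Hnrnph2 ASO, against 190.36, 180.45 and 176.42 TPM with the control ASO, a log2 difference of -0.27. Taf15, a member of the FET family, had -0.41 and Hnrnpc -0.20. Taf15 also stood at -0.25 in R206W, at -0.22 in P209L-cohort WT mice at 3 weeks and at -0.47 at 8 weeks. Of 34 SR proteins and splicing regulators 2 had an unadjusted p under 0.05, Tra2a (-0.33) and Srrm4, the regulator of neuronal microexons (-0.33), a share near the 4.48% of all genes on the lower side. In this list 28 lay below 0, at a median of -0.065, and 4 did not overlap, all on the lower side (8.01% of all genes). Changes in splicing itself cannot be read from a table with 1 value per gene.

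Neuronal signalling genes showed shifts of the same small size. Among 40 genes of the postsynaptic density 4 had an unadjusted p under 0.05, all lower, where 4.48% of all genes were, with a median of -0.08, among 31 genes of presynaptic release none did (median -0.04), and among 28 voltage-gated channel genes 1 did (median -0.02). Gabra2, a GABA-A receptor subunit, measured 16.09, 13.94 and 15.05 TPM with the Hnrnph2 ASO, against 20.8, 19.89 and 18.74 TPM with the control ASO, a log2 difference of -0.38. The median of 19 genes of inhibitory synapses was -0.09. Regional markers varied between libraries, and the lists did not all lie on 1 side. Of 17 genes of hypothalamus, midbrain and hindbrain 12 lay above 0, at a median of 0.01. Of 17 cortical excitatory genes 11 lay below 0 (median -0.08), as did 6 of 9 hippocampal genes (median -0.06). Of 14 striatal genes 13 lay below 0, at a median of -0.22, the lowest of the 41 lists (-0.054 without Hnrnph2 ASO replicate 3), and 1 had an unadjusted p under 0.05. Of 18 cerebellar genes 16 lay below 0, at a median of -0.13, and none had an unadjusted p under 0.05. Adora2a, the adenosine receptor of striatal neurons, measured 30.99, 15.77 and 12.75 TPM with the Hnrnph2 ASO, against 30.2, 26.15 and 22.99 TPM with the control ASO, so the libraries of 1 arm differed more than the arms did. Summed TPM of the striatal genes ran from 716 to 1156 with the Hnrnph2 ASO and from 873 to 1095 with the control ASO, and those of the cerebellar genes from 1765 to 2014 with the Hnrnph2 ASO and from 1713 to 2377 with the control ASO. The part of the striatal markers in the shifts above was not tested.

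A list of 8 genes that earlier results of these data had linked to the Hnrnph2 mutations, chosen partly with the same WT control libraries, was followed last. In WT mice none passed the threshold under the Hnrnph2 ASO. The log2 differences were 0.13 for Ddn (dendrin, a dendritic postsynaptic protein), 0.07 for Brsk1 (a polarity kinase), 0.06 for Ilrun (a regulator of innate signalling), 0.01 for Foxo4 (a forkhead transcription factor) and -0.03 for Ppp1r9b (spinophilin, a spine scaffold). The other 3 were Tnpo2, a nuclear import receptor of the transportin family, at -0.13, Fbxl19, which binds CpG islands, at -0.21 and Shank1, a postsynaptic scaffold, at -0.22. In these 3 genes the arms did not overlap, where 8.01% of all genes did not on the lower side. Their intervals stayed below 0, with an unadjusted p under 0.05, where 4.48% of all genes were lower. Fbxl19 measured 43.62, 45.32 and 44.59 TPM with the Hnrnph2 ASO, against 51.81, 52 and 51.09 TPM with the control ASO (adjusted p = 0.488 by limma).

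In R206W mice 16 genes fell with the same ASO (0.0970% of those tested) and none rose at the threshold. The log2 fold changes of the 8 genes in R206W were -1.12 (Ddn), -0.92 (Ppp1r9b), -0.77 (Shank1), -0.70 (Tnpo2), -0.57 (Fbxl19), -0.53 (Ilrun), -0.43 (Foxo4) and -0.34 (Brsk1). The difference of the effects, WT minus R206W, passed for 3 genes of 16489 (0.0182%), which were Ddn, Tnpo2 and Ppp1r9b. Ddn measured 235.86, 208.23 and 228.24 TPM in WT with the Hnrnph2 ASO, against 215.38, 187.2 and 209.81 TPM in WT with the control ASO. In R206W it measured 268.4, 253.68 and 254.19 TPM with the Hnrnph2 ASO, against 517.66, 511.98 and 669.43 TPM with the control ASO. The R206W control ASO libraries stood highest. The R206W Hnrnph2 ASO libraries lay far below them, but still above every WT library with either ASO. The difference for Ddn was 1.25 (SE 0.137, adjusted p = 0.0213 by limma), for Ppp1r9b 0.89 (SE 0.114, adjusted p = 0.0339) and for Tnpo2 0.57 (SE 0.0687, adjusted p = 0.0287). Without a trend of the variance on the level none of the 3 passed (adjusted p = 0.0728, 0.116 and 0.116 by limma for Ddn, Tnpo2 and Ppp1r9b). Nor did any of the 3 without WT control ASO replicate 3 (0.0801, 0.105 and 0.156) or without WT Hnrnph2 ASO replicate 1 (0.114, 0.128 and 0.128). Ddn passed without each of the 3 WT libraries not named here, and missed without WT Hnrnph2 ASO replicate 3 (0.0597). Tnpo2 passed without WT control ASO replicate 1 (0.0432) and missed without each of the other WT libraries, and Ppp1r9b missed without each of the 6 WT libraries (0.0694 to 0.156). R206W libraries were not left out.

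**Figure D5:**
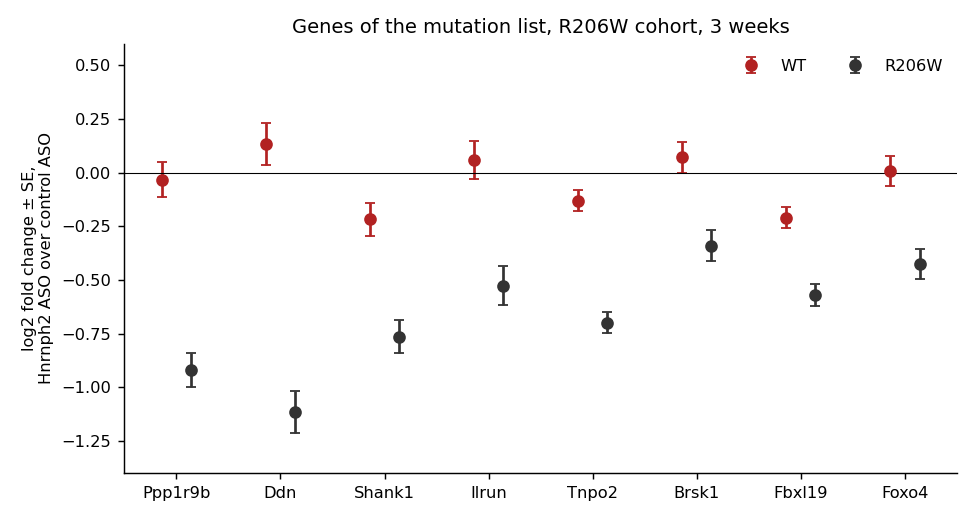
Log2 fold change of Hnrnph2 ASO over control ASO with its SE (vertical axis, log2(TPM + 1)) for the 8 genes of the mutation list in WT (red) and R206W (black) mice of the R206W cohort. WT values lie between -0.22 and 0.13 and R206W values between -1.12 and -0.34.

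Between the WT comparisons of the 2 cohorts no gene differed past the threshold. The effect in the R206W cohort minus that in the P209L cohort at 3 weeks gave 0 called genes of 16556 (0%) by limma, with 697 at an unadjusted p under 0.05. Minus the effect at 8 weeks it also gave 0 (0%), with 558 at an unadjusted p under 0.05. After Tubb2b and Hnrnph1, the named gene with the smallest p against the P209L cohort at 3 weeks was Dnajb11, a cochaperone of Hspa5, at -0.26 in the R206W cohort and 0.09 in the P209L cohort. Against 8 weeks they were Hspa5, Zhx2 (a transcriptional repressor) and Pdia4. Cohort, library series and name stems differ between these comparisons, and their shares in the differences cannot be told apart.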

How the data were processed

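RNA of 35 mouse brain libraries was measured by stranded total-RNA sequencing, per the labels. The authors deposited 1 table of TPM, a level scaled to transcript length and to the same total in every library; the tools in the submitters' processing notes are RSEM, STAR 2.7.1a, GATK 4.0.4.0 and Trim Galore, with the build mm10, and the counting settings are not given in the sources used here. TPM keeps no read totals, so depth is unknown and count tests were not used. Of 55573 rows, 237 share a symbol with another row and were kept apart; 38416 symbols matched the RefSeq table of GRCm38.p6, the source of coordinates. All columns belonged to a sample, and WT libraries were assigned to a cohort by the library number in their titles.

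Genes averaging 1 TPM or more in the R206W cohort (12 libraries, 4 groups, 1 mean per group) entered a limma 3.58.1 fit of log2(TPM + 1), run under R 4.3.3 (eBayes with a trend, two-sided), with Benjamini-Hochberg adjustment over all genes, and called at an adjusted p under 0.05. Intervals are limma's 95% intervals. Differences from the P209L cohort came from a fit of all 35 libraries, and the effects of each P209L cohort from a fit of that cohort. Single values were also compared by exact permutation tests, where 3 libraries against 3 cannot give a p under 0.1. The code was tested on simulated data.

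The rule names the H/F family, the 10 genes in each direction with the largest change among called genes, filled with the smallest p among genes of mean at least 5 TPM whose arms do not overlap, genes within 200 kb of Hnrnph2, the mutation list, up to 4 genes per list by p, and for differences the called genes or the 3 smallest p. Unnamed gene models were passed over except where called. The 41 lists, the genes and the tests were chosen with earlier results of these data known. Alternatives were another pseudocount, no filter, other sets of libraries, no trend, scaling, a replicate block, a cerebellar covariate and leaving out each library. ASO and gene sequences were not analysed here. Single values of 2 genes on the erythrocyte list are not reported here.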

Additional observations from a re-analysis of the deposited data

Results flagged for a closer look

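In 3 genes the effect of the Hnrnph2 ASO in WT mice differed from its effect in R206W mice of the same cohort by a test of the difference itself (limma, adjusted over 16489 genes). For Ddn the effect was 0.13 in WT and -1.12 in R206W on the log2 scale, a difference of 1.25. Tnpo2 had effects of -0.13 in WT and -0.70 in R206W, a difference of 0.57. Ppp1r9b had effects of -0.03 in WT and -0.92 in R206W, a difference of 0.89. All 3 belong to the list that earlier results of these data had linked to the mutations, so they are not independent evidence for it. With 3 libraries in each group, single libraries were not tested for standing apart from their group.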

How the results depend on the processing

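Hnrnph2 fell in every alternative tried, with a log2 fold change of -2.06 to -1.91 when single libraries were left out and of -2.04 to -1.97 otherwise, and Hnrnph1 stood at 0.20 to 0.30 without single libraries and passed in none (lowest adjusted p = 0.124 by limma, with the replicate block). The count of genes called higher was 2 with no filter (Gm6607 and Gm38584), 0 with the cerebellar covariate and 0 to 1 without single libraries. With the 6 libraries alone the gene called higher was Hbb-bt, and with all 35 libraries E330034L11Rik. The count called lower was 2 with all 35 libraries (Hnrnph2 and Pdia4), 2 with the replicate block (Hnrnph2 and Atp8a1) and 1 to 3 without single libraries. The difference from R206W gave 0 genes without a trend, 1 (Ddn) with the cerebellar covariate and 0 to 4 without single WT libraries. The difference from the P209L cohort gave 1 gene (Gm12236) with no filter at 3 weeks and 1 (Snord8) with only the 4 groups compared at 8 weeks. The cause of these shifts was not tested. Without single libraries Foxo4 ran from -0.0018 (without control ASO replicate 1) to 0.025, Grsf1 from -0.036 (without control ASO replicate 2; -0.0090 without Hnrnph2 ASO replicate 1) to 0.060, and Hnrnph3 from -0.14 to 0.010 (without Hnrnph2 ASO replicate 3), none of them called. Of 41 list medians, 15 changed sign in at least 1 alternative. Deviations of libraries with the same replicate number correlated at 0.267, 0.0781 and 0.271 across genes. Between libraries of different numbers the correlations ran from -0.266 to -0.00893, so each library correlated best with the one of its own number. The source of this pattern was not tested. The spread of 3 libraries, not a read depth that could be stated, sets the precision here.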
